A study of Mus musculus with 32 samples.

Results

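The response of lung tumor cells to the return of LKB1 was measured by comparing 7 restored with 10 non-restored libraries, 17 of the 32 bulk RNA-seq libraries of the series. Members were chosen by the cohort given in the labels, with *Trp53* intact. All of these tumors were started in mice by Lenti-Cre and carried *KrasLSL-G12D*, *Rosa26LSL-tdTomato* and *Lkb1XTR/XTR*. In the XTR allele a gene trap in the first intron of *Lkb1* (gene symbol *Stk11*) is inverted by Cre, which silences the gene, and is deleted by the recombinase FLPo-ERT2 once tamoxifen is given. Restored tumors carried FLPo-ERT2 at *Rosa26* and received tamoxifen in 4 mg doses for 2 weeks. Non-restored tumors pooled a tamoxifen arm without FLPo-ERT2 (n = 4) and a vehicle arm with FLPo-ERT2 that received corn oil (n = 6). All were collected 24 to 27 weeks after initiation. Restored libraries came only from female mice, whereas non-restored libraries came from females (n = 7) and males (n = 3). The 4 *KT* libraries, from *KrasLSL-G12D;Rosa26LSL-tdTomato* tumors with wild-type *Lkb1* that received neither tamoxifen nor vehicle, are given beside some values. The XTR line goes back to targeted 129-derived ES cells, the trap allele lowers *Lkb1* somewhat even in its expressed form per the study, and FLPo-ERT2 is expressed from the *Rosa26* locus, which is active in most cell types. The study counts fewer mice than libraries in these groups and no label ties a library to its mouse, so p-values measure the spread between libraries.

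LKB1 is a serine/threonine kinase that works in a complex with the pseudokinase STRAD and the scaffold MO25. It activates AMPK, the energy sensor that shifts cells from synthesis to breakdown of nutrients, and a family of AMPK-related kinases, among them the SIKs, which keep the CREB coactivators of the CRTC family out of the nucleus. Loss of LKB1 is frequent in lung adenocarcinoma, a tumor that can arise from alveolar type II (ATII) cells, the surfactant-producing and regenerative cells of the alveolus.

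Libraries held 1658277 to 5943951 expected counts in restored and 1485923 to 5080811 in non-restored tumors, and a count of 0 allowed levels of up to 0.514 to 1.97 CPM over the 17 (3 counts per library, counting error only). Levels are CPM, in which counts are divided by the TMM-adjusted depth of their library, unless stated otherwise. The 6 epithelial markers summed to 17404 to 49545 CPM in restored and 4807 to 36198 CPM in non-restored libraries. The 19 immune markers summed to 19.2 to 316 CPM and 11.1 to 152 CPM, with *Cd3d* and *Nkg7* at 0 in all, and exceeded 100 CPM in restored replicates 1 and 6 and non-restored replicate 2. The 8 endothelial markers summed to 4.17 to 81.7 CPM and 1.86 to 144 CPM, the 11 mesenchymal markers to 39.4 to 333 CPM and 12.3 to 606 CPM, the 5 red blood cell markers to at most 3.4 CPM and 4.51 CPM, and the 7 airway markers to 21.2 to 1289 CPM and 24.8 to 6683 CPM. Non-restored replicate 8 stood apart, with a median Spearman correlation of 0.814 with the other 16 libraries, the highest airway sum, and 1484 CPM of *Sftpc* against 8079 CPM in the next lowest library. Cells had been sorted for tdTomato, and whether the airway markers came from tumor cells or from other cells was not tested. The 5 sex-linked genes did not go against any label.

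*Stk11* (chromosome 10, 80115803 to 80130682, GRCm38) ranged from 11.6 to 22.3 CPM in restored libraries (median 15.3) and from 0 to 1.07 CPM in non-restored libraries (median 0.371). *KT* libraries ranged from 16.6 to 27.2 CPM. Every restored library thus lay above every non-restored library, and *Stk11* was at least 13.2-fold higher against a floor of 3 counts per library (edgeR quasi-likelihood test, adjusted p = 9.81e-10). Among 61 tested genes that start within 1 Mb of *Stk11*, 1 changed, which is near the share of 1.86% over all genes tested. This was *Mknk2*, a kinase downstream of MAP kinases. It ranged from 44.9 to 66.7 CPM in restored and 26.4 to 48.1 CPM in non-restored libraries (log2 fold change 0.63, SE 0.14, adjusted p = 0.0166). It was not called against the tamoxifen arm (adjusted p = 0.0761) or the vehicle arm (0.0946) alone, or without the 3 libraries with most immune markers. *Cbarp* overlaps *Stk11* on the opposite strand.

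Across the genome, 236 of 12656 tested genes changed at an adjusted p under 0.05, which is 1.86% and is the background for the counts of gene lists (0.972% higher and 0.893% lower). The lists were chosen with earlier results of these data known. A list share beside this background is thus description and no test of enrichment. Of these 123 were higher and 113 lower in restored tumors, and 62 and 52 of them by more than 2-fold. The median change was 1 on the log2 scale among higher genes and -0.86 among lower genes. In bulk samples fewer cells of a type and less RNA per cell cannot be told apart. The restored and non-restored libraries did not overlap at all for 39 higher and 23 lower genes, 62 of the 236, against 70 genes or 0.553% of all genes tested. Of the 230 changed genes with a single location in the annotation, 63 (27.4%) had another changed gene within 1 Mb. The share for equally many tested genes was not computed, so this value is no measure of clustering. Leaving out libraries moved the count strongly. It was 145 without restored replicate 7, 154 without restored replicate 2, 157 without restored replicate 1 and 319 without non-restored replicate 8. Without the 3 libraries whose immune markers exceeded 100 CPM it was 89, with 78 of them among the 236, and none of the 236 reversed its direction. DESeq2 called 468 genes, all 236 included.

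**Figure D1:**
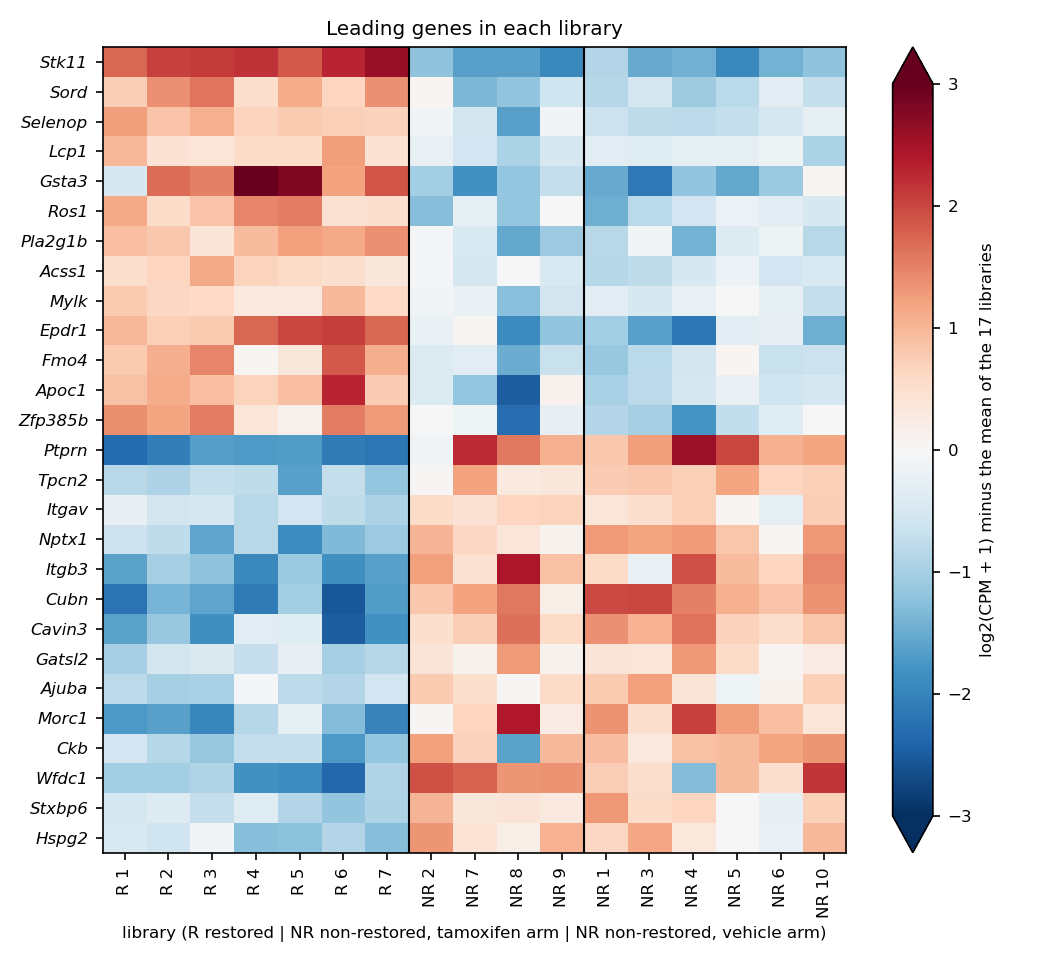
Heat map of *Stk11* and 26 leading genes (rows) in 17 libraries (columns), as log2(CPM + 1) minus the mean of the 17 libraries, with red above and blue below the mean. Restored libraries are at left, the tamoxifen arm in the middle and the vehicle arm at right, and the 12 genes below *Stk11* are red in nearly all restored libraries whereas the lowest 14 rows are blue or near white there.

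The leading higher genes encode enzymes, secreted proteins and cell-surface proteins. *Sord*, the sorbitol dehydrogenase that turns sorbitol into fructose, ranged from 19.9 to 42.8 CPM in restored libraries (median 30.2) and from 4.73 to 14.2 CPM in non-restored libraries (median 7.55). The groups did not overlap, and *Sord* rose 3.77-fold (log2 fold change 1.91, SE 0.20, adjusted p = 1.03e-05). *Selenop*, the secreted selenium carrier, ranged from 778 to 1170 CPM (median 841) against 158 to 466 CPM with a median of 325 (log2 fold change 1.43, SE 0.17, adjusted p = 5.02e-05). *Ccdc152*, which overlaps *Selenop* on the opposite strand, rose as well (log2 fold change 1.25, SE 0.21, adjusted p = 0.00188), and without strand in the counting the reads of this pair cannot be told apart. The receptor tyrosine kinase *Ros1* ranged from 127 to 269 CPM (median 167) against 32.6 to 90.3 CPM (median 63.2), again without overlap (log2 fold change 1.59, SE 0.22, adjusted p = 2.75e-04).

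Further secreted or lipid-handling products were among the leading higher genes. *Pla2g1b*, a secreted phospholipase A2, ranged from 14.9 to 30.7 CPM against 3.25 to 11 CPM (log2 fold change 1.73, SE 0.25, adjusted p = 4.09e-04). The apolipoprotein gene *Apoc1* ranged from 63.6 to 198 CPM against 6.27 to 43.7 CPM (log2 fold change 1.85, SE 0.29, adjusted p = 0.0015), and *Epdr1*, an ependymin-related secreted protein, from 9.44 to 25.7 CPM against 0.398 to 5.63 CPM (log2 fold change 2.72, SE 0.40, adjusted p = 6.16e-04). In all 3 of these genes each restored library exceeded each non-restored library. The glutathione transferase *Gsta3* rose most steeply of these leading genes, 14.9-fold, but varied widely within the restored group, from 3.22 to 67.2 CPM (median 17.7) against 0.343 to 5.26 CPM (median 1.61), and the groups overlapped (log2 fold change 3.90, SE 0.52, adjusted p = 2.33e-04). Restored replicates 4 and 5, which had the highest airway marker sums of the group (1081 and 1289 CPM), held 67.2 and 40.3 CPM of *Gsta3* and the other restored libraries no more than 20.7 CPM. It was called when either of them was left out singly (log2 fold change 3.44 and 3.75). No fit left out both together, and the part of airway cells in its level was not tested. RSEM divides reads among *Gsta* paralogs, so the level of this member is uncertain. The lowest non-restored values of *Gsta3* were under the floor of 3 counts per library, so the size of its fold is uncertain as well. *Fmo4*, a flavin monooxygenase that oxidizes foreign compounds, rose 3.39-fold (adjusted p = 6.69e-04). *Acss1*, the mitochondrial acetyl-CoA synthetase, rose 2.11-fold (adjusted p = 4.79e-04), *Mylk*, the myosin light chain kinase, 2-fold (adjusted p = 5.29e-04), and the zinc finger gene *Zfp385b* 3.53-fold (adjusted p = 0.0015). *Lcp1*, which encodes the actin-bundling protein L-plastin and is known mainly from leukocytes, ranged from 355 to 655 CPM against 141 to 247 CPM (log2 fold change 1.13, SE 0.14, adjusted p = 9.20e-05). The 5 restored libraries under 100 CPM of immune markers held 355 to 402 CPM of *Lcp1*, all above the non-restored range.

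The leading lower genes encode a secretory granule protein, adhesion receptors and matrix, an endocytic receptor and proteins of caveolae and lysosomes. *Ptprn*, a transmembrane protein of dense-core secretory granules, ranged from 14.1 to 22.9 CPM in restored libraries (median 17) and from 68.9 to 448 CPM in non-restored libraries (median 175). It fell 11.6-fold (log2 fold change -3.54, SE 0.33, adjusted p = 4.56e-06), and the restored range lay within the *KT* range of 7.72 to 23.5 CPM. Both chains of the vitronectin receptor fell. The alpha chain *Itgav* ranged from 233 to 372 CPM (median 297) against 368 to 738 CPM (median 640), with an overlap at the edge (log2 fold change -1.09, SE 0.13, adjusted p = 9.04e-05). The beta chain *Itgb3* ranged from 4.42 to 9.44 CPM (median 5.79) against 16.8 to 110 CPM (median 38.2), without overlap (log2 fold change -2.82, SE 0.35, adjusted p = 9.04e-05). *Cubn*, which encodes the endocytic receptor cubilin, ranged from 0.299 to 2.7 CPM against 7.59 to 29.5 CPM, a fitted 13.1-fold fall (log2 fold change -3.71, SE 0.47, adjusted p = 9.20e-05). Its lowest restored values were at or under the floor of 3 counts per library (0.514 to 1.97 CPM), so the size of this fold is uncertain. *Tpcn2*, the endolysosomal 2-pore cation channel, fell 3.31-fold (adjusted p = 3.92e-05), and *Cavin3*, a coat protein of caveolae, 4.96-fold (adjusted p = 2.97e-04).

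*Nptx1*, a secreted pentraxin of synapses, fell 4.44-fold (adjusted p = 9.04e-05) and *Ckb*, the creatine kinase of brain type, 4.28-fold (adjusted p = 0.00177). *Ajuba*, a LIM-domain protein that binds LATS kinases, fell 2.55-fold (adjusted p = 0.00134), *Stxbp6*, a syntaxin-binding protein, 2.63-fold (adjusted p = 0.00243) and *Gatsl2* 2.39-fold (adjusted p = 0.00122). The germ cell gene *Morc1* ranged from 0.343 to 3.38 CPM against 4.51 to 27.6 CPM (log2 fold change -3.08, SE 0.50, adjusted p = 0.00151). Its lowest restored values were under the floor of 3 counts per library, so the size of its fall is uncertain. *Wfdc1*, a secreted protein of the protease-inhibitor fold, ranged from 1.2 to 4.97 CPM against 3.58 to 48.6 CPM (log2 fold change -2.87, SE 0.48, adjusted p = 0.00196). *Hspg2*, which encodes the basement membrane proteoglycan perlecan, ranged from 18.9 to 44.7 CPM against 40.9 to 119 CPM (log2 fold change -1.47, SE 0.25, adjusted p = 0.00279). Of the 27 leading genes, the libraries did not overlap between groups for 11 of 13 higher and 9 of 14 lower genes, values that the choice by smallest p favors. *Zfp385b* lost its call in the tamoxifen arm alone (adjusted p = 0.0549) and *Gatsl2* with offsets for effective gene length (0.095), and the other 25 were called under each of 29 alternatives, except that *Gsta3* was not tested with the replicate block. Leaving out a library need not leave out a mouse, since no label ties a library to its mouse.

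**Figure D2:**
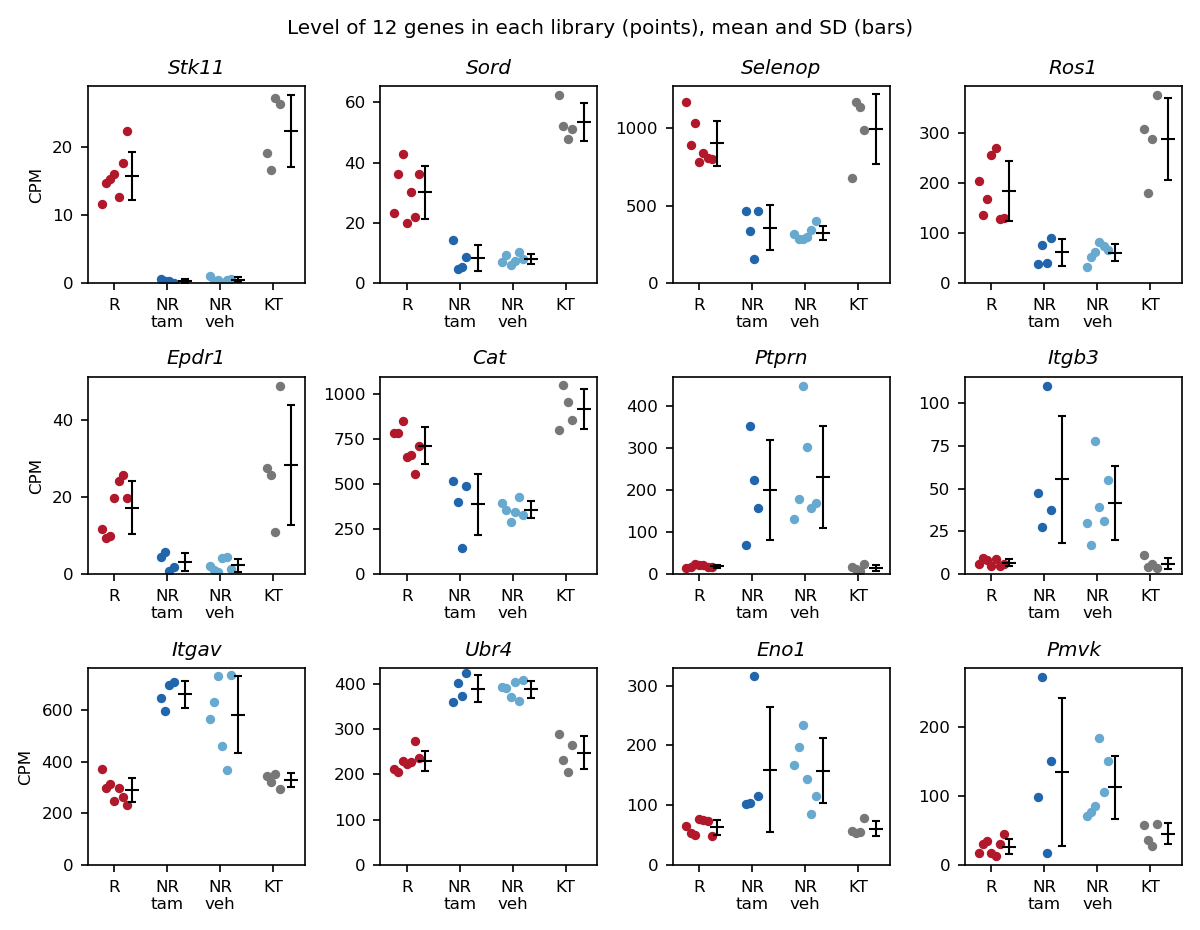
CPM (vertical axes, from 0) of 12 genes in each library, with restored (R), non-restored tamoxifen arm (NR tam), non-restored vehicle arm (NR veh) and *KT* libraries as points and the mean with its SD as bars. *Stk11*, *Sord*, *Selenop*, *Ros1*, *Epdr1* and *Cat* are higher in restored libraries than in both arms, and *Ptprn*, *Itgb3*, *Itgav*, *Ubr4*, *Eno1* and *Pmvk* are lower.

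Genes around LKB1 itself moved little at the RNA level. Of 20 tested members of the LKB1 complex, AMPK and AMPK-related kinases, *Stk11* and *Sik1* changed, and the median log2 fold change was 0. None of the 6 AMPK subunits was called. *Sik1*, a salt-inducible kinase that is both a target of LKB1 and a CREB-responsive gene, ranged from 59.7 to 85.6 CPM (median 61.6) against 85 to 206 CPM with a median of 115 (log2 fold change -0.85, SE 0.18, adjusted p = 0.0133). It was not called against the tamoxifen arm (0.0552) or the vehicle arm (0.0647) alone, or without the 3 libraries with most immune markers (0.066). In the CREB and cAMP list 1 of 25 members changed, with a median of -0.13. This was *Pde10a*, a phosphodiesterase that breaks down cAMP and cGMP, with 0 to 4.79 CPM (median 1.93) against 0.464 to 29.9 CPM with a median of 17 (log2 fold change -3.18, SE 0.71, adjusted p = 0.0201, up to 0.0966 over the alternatives). Among 6 tested neuroendocrine secretory genes only *Ptprn* was called (median -0.43). Of 6 UBR ubiquitin ligases, *Ubr4*, a large N-recognin, changed (median -0.10). Its libraries were tightly grouped at 206 to 274 CPM against 359 to 424 CPM (log2 fold change -0.76, SE 0.08, adjusted p = 1.39e-05), but with offsets for effective gene length its adjusted p was 0.232.

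Because CREB, C/EBP and SP/KLF factors have been linked to LKB1 or to alveolar identity, the 250 bases before the start of each gene were searched for their motifs on both strands in RefSeq promoters (GRCm38.p6), which were found for 9139 tested genes and 179 of the 236 changed genes. The cyclic AMP response element TGACGTCA occurred in 3.13% of all promoters, in 0 of 94 higher genes and in 3 of 85 lower genes (3.53%). The C/EBP motif TTGCNNAA occurred in 9.05% of all, 9.57% of higher and 9.41% of lower genes. The GC box GGGCGG of SP and KLF factors occurred in 64.5% of all, 55.3% of higher and 63.5% of lower genes. The motifs were searched separately and none contains another. For each motif the promoter of the changed gene with the smallest adjusted p in the direction with the larger share is shown, with the match to that motif in capitals, to show where in the promoters of these genes the letters lie. They are *Mcam*, which encodes the adhesion molecule CD146 and fell 6.53-fold (adjusted p = 0.0348, not called in 16 of 29 alternatives), *Gsta3* and *Ptprn*. The regions are *Mcam* (chr9:44134408-44134657, plus strand), *Gsta3* (chr1:21240335-21240584, plus strand) and *Ptprn* (chr1:75263772-75264021, minus strand).
Mcam: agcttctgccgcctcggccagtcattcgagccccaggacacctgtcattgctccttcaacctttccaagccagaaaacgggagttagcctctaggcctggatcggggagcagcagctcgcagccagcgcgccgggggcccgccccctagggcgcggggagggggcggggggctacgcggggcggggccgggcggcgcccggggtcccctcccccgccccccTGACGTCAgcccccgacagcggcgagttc
Gsta3: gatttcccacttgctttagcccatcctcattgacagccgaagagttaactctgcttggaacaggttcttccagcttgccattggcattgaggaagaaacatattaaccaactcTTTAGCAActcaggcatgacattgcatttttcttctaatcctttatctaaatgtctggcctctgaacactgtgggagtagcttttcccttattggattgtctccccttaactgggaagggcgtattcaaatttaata
Ptprn: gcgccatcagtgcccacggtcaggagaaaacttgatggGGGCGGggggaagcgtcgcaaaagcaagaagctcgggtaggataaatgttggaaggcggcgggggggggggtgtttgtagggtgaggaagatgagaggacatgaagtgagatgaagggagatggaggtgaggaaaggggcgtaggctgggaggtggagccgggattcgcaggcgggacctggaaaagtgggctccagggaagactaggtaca
*Gsta3* carries its C/EBP match on the opposite strand. A match is a run of letters and no measure of binding.

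Most glycolysis genes had negative fold changes, though few passed the test. They were 15 of 19 tested members, with a median of -0.68 against -0.01 over all genes tested, and *Eno1* and *Aldoa* were called (10.5% against 1.86%). The enolase gene *Eno1* ranged from 48.3 to 76.8 CPM (median 65) against 85 to 316 CPM (median 130), without overlap (log2 fold change -1.33, SE 0.23, adjusted p = 0.00365), and was called in all 29 alternatives. The aldolase gene *Aldoa* ranged from 184 to 311 CPM against 260 to 752 CPM (log2 fold change -0.86, SE 0.20, adjusted p = 0.0263, up to 0.169 over the alternatives). Both were highest in non-restored replicates 8 and 4, at 316 and 234 CPM of *Eno1* and 752 and 723 CPM of *Aldoa*, and these libraries also had the highest airway sums of the 17 (6683 and 1401 CPM). The part of airway cells was not tested. Both genes were called when either library was left out singly, and the median of the list was -0.52 without replicate 8 and -0.50 without replicate 4. No fit left out both libraries together. Other members of the pathway had similar fold changes without a call, such as *Pgk1* (-1.03, adjusted p = 0.126), the lactate dehydrogenase gene *Ldha* (-0.53, 0.0795) and the glucose transporter gene *Slc2a1* (-1.05, 0.184), whereas the hexokinase gene *Hk2* was level (-0.00, 0.997). Of 13 polyol, fructose and pentose phosphate genes *Sord* alone was called (median -0.01). The hypoxia list had 0 of 16 members called (median -0.17), and the mitophagy receptor gene *Bnip3l* was at 304 ± 67.4 CPM (SD, n = 7) against 305 ± 50 CPM (n = 10). Among 29 genes of oxidative phosphorylation 25 had negative fold changes of small size (median -0.15), none was called, and *Atp5b*, the beta subunit of ATP synthase, was at 457 ± 74.5 against 529 ± 80.9 CPM. In the ATF4 and amino acid list 0 of 20 genes were called (median -0.13), with *Atf3* at 355 ± 105 against 297 ± 101 CPM.

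Lipid genes moved in both directions. *Pmvk*, the phosphomevalonate kinase of sterol synthesis, ranged from 12.4 to 44.6 CPM (median 30.2) against 17.4 to 272 CPM (median 101), where the lowest non-restored value was that of replicate 8 (log2 fold change -2.17, SE 0.40, adjusted p = 0.00657). It was the only one of 19 sterol genes called, 17 of which had negative fold changes (median -0.36), and it was not called without the libraries with most immune markers (adjusted p = 0.0522). *Pcyt1a*, which catalyzes the rate-limiting step of phosphatidylcholine synthesis, ranged from 81.2 to 148 CPM (median 131) against 37.6 to 99.3 CPM with a median of 64.1 (log2 fold change 0.86, SE 0.18, adjusted p = 0.0117), and was not called against the tamoxifen arm alone (0.154). It was the 1 gene called among 31 of fatty acid and glycerolipid synthesis (median 0.12). Of 23 genes of fatty acid oxidation and PPAR signaling, *Hadh*, a mitochondrial enzyme of beta-oxidation, rose 1.53-fold (adjusted p = 0.0291, up to 0.172) and *Angptl4*, a secreted inhibitor of lipoprotein lipase, fell 3.77-fold (adjusted p = 0.0318, up to 0.156), with a list median of -0.02. Of 14 lipoprotein genes and endocytic receptors *Apoc1* rose and *Cubn* fell, and 11 had positive fold changes (median 0.10).

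Esterases, monooxygenases and transferases that handle foreign compounds were among the genes that rose. In the xenobiotic list 4 of 18 genes rose and none fell (22.2% against 1.86%), with a median of 0.80. As for every list, the members were chosen with earlier results known, so this share is description. *Ces1d*, a carboxylesterase, ranged from 79.3 to 284 CPM (median 174) against 1.62 to 61.9 CPM (median 42.9), without overlap (log2 fold change 2.40, SE 0.46, adjusted p = 0.00828). The flavin monooxygenase *Fmo1* ranged from 5.68 to 54.9 CPM (median 13) against 0.225 to 6.99 CPM (median 1.45) and rose 8.34-fold (adjusted p = 0.0306). Its lowest non-restored values were under the floor of 3 counts per library, so the size of this fold is uncertain. The glucuronosyltransferase *Ugt1a6a* rose 1.9-fold (adjusted p = 0.0153), but it shares exons with other *Ugt1a* members, so its own level is uncertain. The sulfotransferase *Sult1a1* rose 2.24-fold (adjusted p = 0.0314). None of these 4 genes was called against the tamoxifen arm alone, where the adjusted p was 0.123 for *Ces1d*, 0.243 for *Fmo1*, 0.196 for *Ugt1a6a* and 0.226 for *Sult1a1*. In the NRF2 and glutathione list 3 of 21 genes rose and none fell (median 0.19). Beside *Gsta3* these were the glutathione transferases *Gstm1*, with 31.5 to 501 CPM (median 59.7) against 9.09 to 51.5 CPM (median 30.4), and *Mgst1*, with 419 to 764 CPM (median 538) against 162 to 473 CPM (median 336). *Gstm1* had an adjusted p of 0.0244 (0.00115 to 0.221 over the alternatives) and *Mgst1* of 0.0375 (0.00131 to 0.158). *Gstm1* was at 457 and 501 CPM in restored replicates 4 and 5, which also had the highest airway marker sums of the restored group (1081 and 1289 CPM), and at no more than 63.1 CPM in the other restored libraries. It was not called when either of these libraries was left out singly, and the part of airway cells in its level was not tested. Of 18 selenoprotein genes *Selenop* alone was called (median 0.04).

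Most ATII genes had positive fold changes, and most genes of other alveolar states negative ones. Of 35 tested ATII genes 31 had positive fold changes, with a median of 0.63, and 4 rose (11.4% against 1.86%), with *Lyz2*, *Bex2*, *Bex4* and *Cat* called and the median 0.47 without non-restored replicate 8. The catalase gene *Cat* ranged from 555 to 850 CPM (median 710) against 145 to 513 CPM (median 376), without overlap (log2 fold change 0.95, SE 0.17, adjusted p = 0.004), but was not called against the tamoxifen arm alone (0.0778). *Bex2*, a small adaptor protein gene on the X chromosome, ranged from 19.6 to 207 CPM (median 122) against 0.696 to 39.3 CPM (median 22.7), and *Bex4* from 0.982 to 61.9 CPM against 0 to 5 CPM, both with an adjusted p of 0.0153 that reached 0.164 and 0.119 over the alternatives. The lysozyme gene *Lyz2* had the highest level per transcript length of all changed genes in restored tumors, a mean of 23921 TPM against 7324 TPM (log2 fold change 1.83, SE 0.44, adjusted p = 0.0314), and lost its call in 13 of 29 alternatives. The 10 surfactant and lamellar body genes had a median of 0.41 and none was called. *Sftpc*, the surfactant protein C gene, ranged from 14694 to 48007 CPM against 1484 to 34313 CPM (log2 fold change 0.66, SE 0.39, adjusted p = 0.444), and *Sftpa1* from 9048 to 27439 CPM against 562 to 15082 CPM (1.22, SE 0.41, 0.147).

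The list of alveolar progenitor and transitional markers had a median of -0.70, with 11 of 14 negative fold changes, and the median was -0.40 without non-restored replicate 8. Only *Sfn*, which encodes 14-3-3 sigma, fell, from 5.15 to 29.2 CPM (median 14.6) in non-restored to 1.91 to 8.84 CPM (median 4.53) in restored libraries (log2 fold change -1.54, SE 0.32, adjusted p = 0.0131, 0.0621 against the vehicle arm alone). Of 18 type I genes, *Emp2*, a membrane protein of alveolar type I cells, fell 1.53-fold (adjusted p = 0.0385, not called in 19 of 29 alternatives), and the median was -0.36. Among 17 lineage transcription factors 2 rose (median 0.12). Among them the ETS factor *Ehf* ranged from 194 to 316 CPM against 81.5 to 235 CPM (adjusted p = 0.0244, up to 0.179). None of 5 C/EBP genes was called (median 0.09). Their fold changes were positive in 4 (up to 0.49) and negative in 1 (-0.18), and *Cebpg* was at 131 ± 17.2 against 148 ± 17.4 CPM. None of 16 KLF and SP factors was called (median 0.26), with *Klf6* at 921 ± 126 against 653 ± 184 CPM.

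Most adhesion and matrix genes had negative fold changes, but few passed the test. Of 14 integrin genes the 2 chains named above were called, and 10 had negative fold changes (median -0.39). *Lamc1*, the gamma chain shared by many laminins, was the 1 gene called among 34 of the extracellular matrix (median -0.28). It ranged from 129 to 159 CPM against 168 to 237 CPM, a difference of small size without overlap (log2 fold change -0.41, SE 0.09, adjusted p = 0.0148), which lost its call in 7 of 29 alternatives. Of 22 Hippo and YAP genes *Ajuba* was called (median -0.09), and the 9 target genes had a median of -0.01. The list of epithelial and mesenchymal genes had 0 of 21 called (median -0.33). Its 13 epithelial genes had a median of -0.34, with 2 positive fold changes. Its 8 mesenchymal genes had a median of 0.06, with 5 positive fold changes. E-cadherin (*Cdh1*) was at 714 ± 192 CPM (n = 7) against 829 ± 153 CPM (n = 10).

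Signaling, immune and cell cycle lists held few calls. Of 24 genes of MAPK output and feedback *Ros1* alone was called (median -0.11), and of 14 AP-1 and immediate early genes none (median 0.26), with *Egr1* at 2264 ± 423 against 1510 ± 334 CPM. All 8 MHC class II genes had positive fold changes (0.38 to 1.22, median 0.97), 7 of them with an unadjusted p under 0.05, but none was called by edgeR or by DESeq2. The invariant chain gene *Cd74* ranged from 986 to 2202 CPM against 113 to 1534 CPM (log2 fold change 0.72, SE 0.33, adjusted p = 0.299). Since macrophages and B cells express these genes, the median was also taken without the 3 libraries with most immune markers, where it was 0.95. It was 0.83 without non-restored replicate 8, in which *Cd74* was at 113 CPM against 510 CPM or more in the other non-restored libraries. None of 22 MHC class I and interferon genes (median 0.12, *B2m* at 772 ± 411 against 562 ± 477 CPM) and none of 22 chemokine, cytokine and complement genes (median 0.25, *Cxcl15* at 9814 ± 4148 against 5299 ± 2425 CPM) was called. Of 41 cell cycle genes 35 had negative fold changes (median -0.33), 6 of them with an unadjusted p under 0.05, and edgeR called none and DESeq2 1. All 15 mitosis and G2 genes had negative fold changes (median -0.49), and cyclin D1 (*Ccnd1*) was at 306 ± 87.9 against 453 ± 95.1 CPM (adjusted p = 0.0671). Of 19 p53 targets none was called by either tool (median -0.12), 1 had an unadjusted p under 0.05, and *Ccng1* was at 625 ± 140 against 629 ± 178 CPM.

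For the lists without a call in edgeR, the members with an unadjusted p under 0.05 and those called by DESeq2 were 2 and 1 for hypoxia, 5 and 0 for oxidative phosphorylation, 5 and 2 for ATF4, and 3 and 1 for epithelial and mesenchymal genes. They were 1 and 0 for C/EBP, 3 and 0 each for KLF and SP and for AP-1, 1 and 0 for MHC class I and interferon, and 6 and 1 for chemokines, cytokines and complement.

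Organelle genes rose in single members. *Pdia6*, a protein disulfide isomerase, and *Fkbp11*, a peptidyl-prolyl isomerase, both of the endoplasmic reticulum, were called among 21 folding genes (median 0.06), with *Fkbp11* at 6.12 to 18.1 CPM against 3.87 to 10.3 CPM (log2 fold change 1.01, adjusted p = 0.0131, up to 0.0867) and *Pdia6* at 186 to 242 CPM against 121 to 206 CPM (0.38, adjusted p = 0.036, up to 0.18). Of 37 lysosome and autophagy genes 27 had positive fold changes (median 0.17). The autophagy receptor gene *Sqstm1* rose from 77.4 to 101 CPM (median 88.4) to 108 to 145 CPM (median 125), without overlap (log2 fold change 0.48, SE 0.11, adjusted p = 0.0186, up to 0.133), and *Tpcn2* fell.

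**Figure D3:**
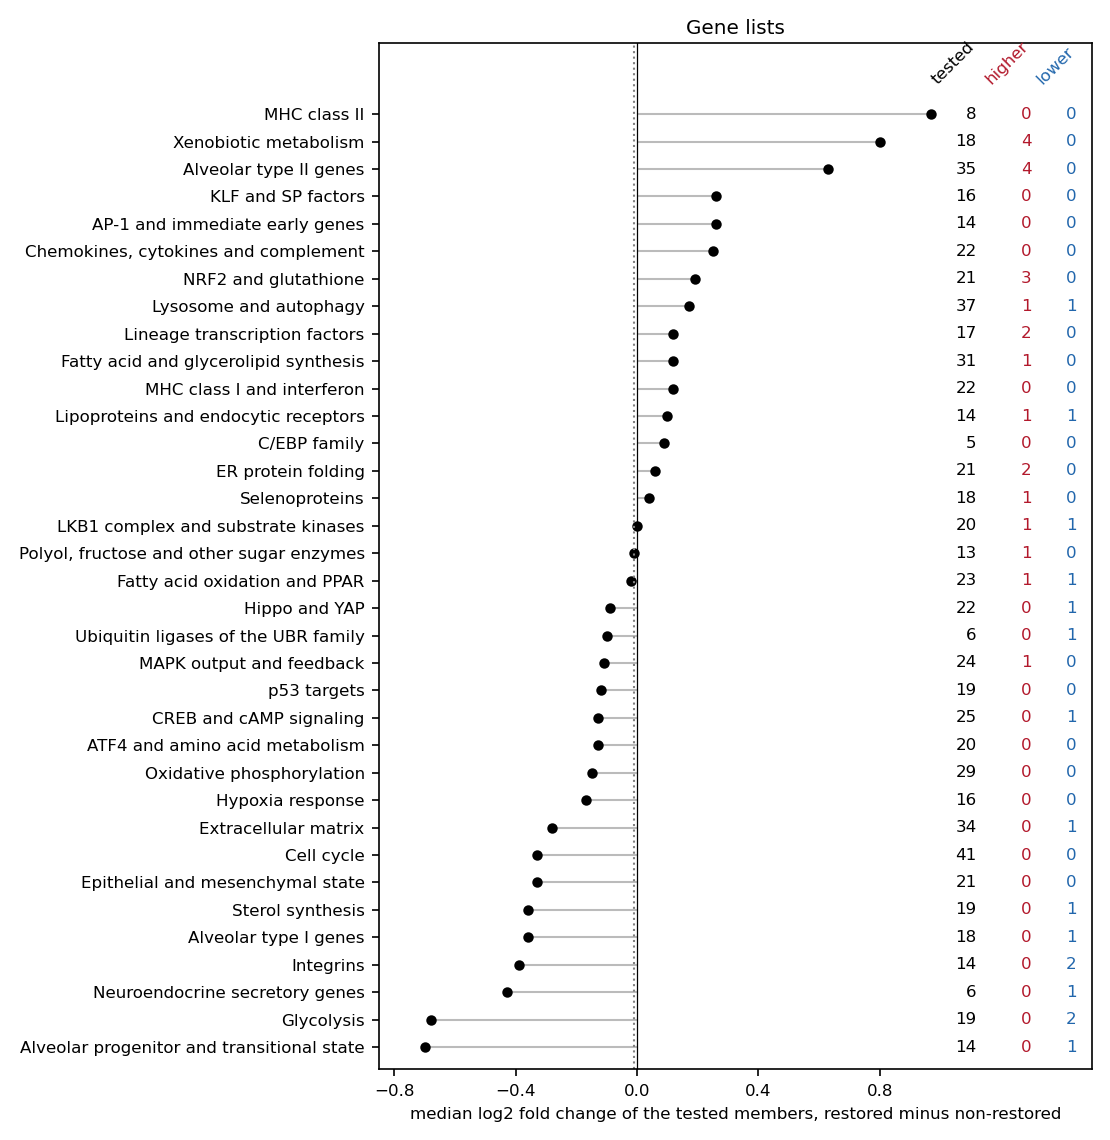
Median log2 fold change of the tested members of 35 gene lists (points, restored minus non-restored, 0 as a solid line and the median of -0.01 over all genes as a dotted line), with the numbers of members tested, called higher and called lower at right. MHC class II, xenobiotic and ATII genes have the highest medians (0.97, 0.80 and 0.63), and the progenitor list and glycolysis the lowest (-0.70 and -0.68).

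The tamoxifen arm shares tamoxifen with restored tumors, and the vehicle arm shares FLPo-ERT2. Neither arm had both, so activity of the recombinase and the return of LKB1 cannot be told apart. The arms also differed in sex. Replicates 2 and 9 of the tamoxifen arm and replicate 10 of the vehicle arm were male, and all restored libraries were female. When each arm was set against the restored group in a fit of 4 groups, 101 genes were called against the tamoxifen arm (0.798% of those tested) and 97 against the vehicle arm (0.766%). The comparisons share the restored libraries, and the leading genes were chosen with both arms pooled. Of the 236 changed genes, 78 were called against the tamoxifen arm, 85 against the vehicle arm and 45 against both. All 27 leading genes were called against the vehicle arm and 26 against the tamoxifen arm, *Zfp385b* being the exception. *Ptprn* was lower than the tamoxifen arm by a log2 fold change of -3.42 (adjusted p = 9.16e-05) and than the vehicle arm by -3.62 (1.75e-05), *Ubr4* by -0.76 in both (6.84e-04 and 1.33e-04), and *Sord* was higher by 1.94 (0.00167) and 1.90 (2.14e-04). Without non-restored replicate 8, which lies in the tamoxifen arm, 270 genes were called against the vehicle arm. The arms themselves differed in 1 gene, the predicted gene *Gm28438* (log2 fold change 2.76), and 584 genes had an unadjusted p under 0.05.

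Tumors of the same design with *Trp53* deleted, collected at 16 to 19 weeks, gave the same contrast in libraries that are not part of the comparison above. There, 4 restored animals were compared with 4 non-restored animals (7 libraries, summed by animal). All 4 restored animals were female and received tamoxifen with FLPo-ERT2. The non-restored animals were 2 on vehicle with FLPo-ERT2 and 2 on tamoxifen without it, and 2 of them were male, so that sex was unbalanced in the same way as in *Trp53* wild-type tumors. *Stk11* ranged from 8.59 to 15.2 CPM against 0 to 0.509 CPM, with an adjusted p of 0.0588 in edgeR, so that even the target of the allele was not called. In all, 0 of 12518 genes were called by edgeR, 747 had an unadjusted p under 0.05 (5.97%) and DESeq2 called 23. Of the 236 genes 227 were tested in these tumors, and 207 of them (91.2%) had the same direction, against 65.9% of the 12032 genes tested in both. An unadjusted p under 0.05 was reached by 73 (32.2%), every one in the same direction. The median log2 fold change there was 0.62 for the genes that rose and -0.40 for those that fell in *Trp53* wild-type tumors, where the genes were chosen on that same value. *Ptprn* ranged from 48.7 to 198 CPM in restored and 126 to 347 CPM in non-restored animals (log2 fold change -1.54, unadjusted p = 0.0189), so that the groups overlapped there. *Itgb3* ranged from 5.23 to 30 CPM against 33.4 to 93.5 CPM (-1.65, p = 0.00966), *Itgav* from 396 to 590 CPM against 670 to 845 CPM (-0.52, p = 0.0103) and *Ubr4* from 249 to 293 CPM against 313 to 365 CPM (-0.33, p = 0.0254), each without overlap. *Selenop* ranged from 463 to 570 CPM against 133 to 397 CPM (0.93, p = 0.00783) and *Sord* from 4.55 to 16.4 CPM against 1.78 to 7.65 CPM (1.37, p = 0.0239). *Ajuba* was nearly level at 11.2 to 13.4 CPM against 10.7 to 15.8 CPM (-0.10, p = 0.641), as was *Mylk* at 69.5 to 154 CPM against 72.9 to 145 CPM (0.26, p = 0.379). Whether restoration acted differently by *Trp53* status was tested with an interaction term over 13705 genes. None was called by edgeR or by DESeq2, and an unadjusted p under 0.05 was reached by 423 in edgeR (3.09%) and 452 in DESeq2. Of the 236 genes, 54 were among the former, but their choice used one side of this difference. Age and *Trp53* status cannot be told apart in this difference.

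**Figure D4:**
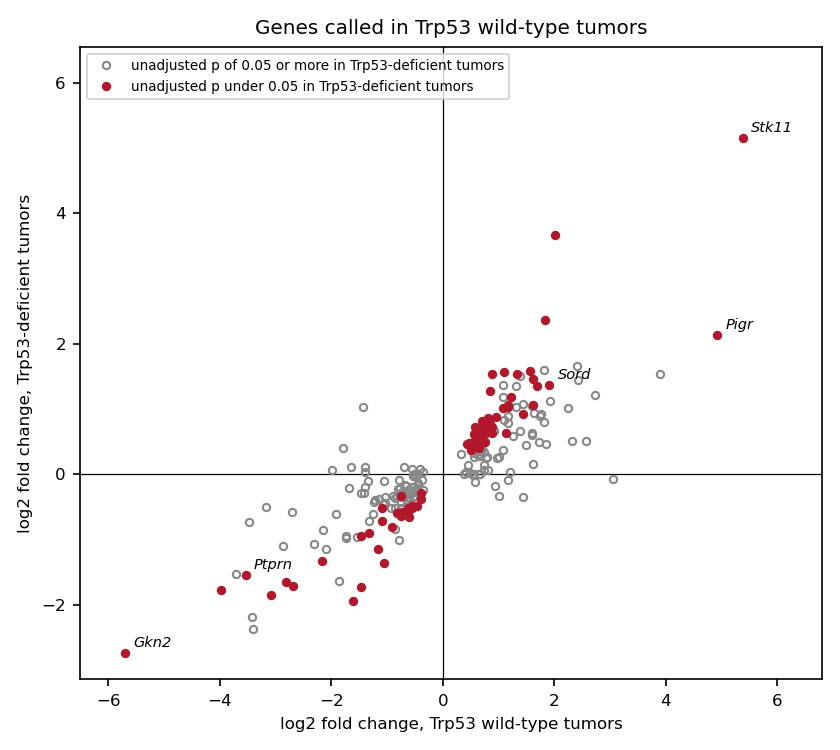
Log2 fold change on restoration in *Trp53* wild-type tumors (horizontal axis) and in *Trp53*-deficient tumors (vertical axis) for the 227 genes called in the former and tested in the latter. Filled red points have an unadjusted p under 0.05 in *Trp53*-deficient tumors, and all 73 lie in the quadrants of equal direction.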

How the data were processed

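Neoplastic cells from lung tumors were sorted by FACS as tdTomato-positive cells, after exclusion of CD45, CD31, F4/80 and Ter119 positive and of dead cells. Total RNA was made into libraries with a ribosomal RNA depletion kit. The authors aligned paired reads to mm10 with STAR 2.6.1d and deposited RSEM 1.2.30 expected counts, which are not normalized, and TPM, which RSEM scaled for effective length. Strand settings are not given in the sources used here. A table of normalized counts and tables of the authors' own comparisons (fold changes and p-values) were not used. Expected counts were rounded, filtered with filterByExpr, scaled by TMM and tested with edgeR 4.0.16 (quasi-likelihood F test, robust, in R 4.3.3), with Benjamini-Hochberg adjustment over all genes and calls at 0.05. The 21 *Trp53* wild-type libraries entered in 3 groups, or in 4 with the control arms apart. The procedure was tested on simulated data. No pair of libraries of a group was alike within sampling noise (lowest chi-square per degree of freedom 4.43). This check does not tell whether libraries came from separate mice, since libraries of the same mouse may also differ by more than sampling noise. Coordinates are from GENCODE M21 and promoters from RefSeq. The genes named are *Stk11*, the 14 most significant genes per direction among those called with an absolute log2 fold change over 1, up to 3 called members of each list or, without any, its member with the highest mean CPM, and called genes near *Stk11*. Others were chosen after their values were seen. Some genes that the rule names are counted but not reported here. Members, lists and tests were chosen with earlier results of these data known. Alternatives were DESeq2 1.42.0, RLE size factors, no filter, at least 10 counts in 7 libraries, offsets for effective length, a fit of 2 groups, sex as a covariate, female libraries alone, each arm alone, a replicate block, each library left out and, chosen after seeing the data, the 3 libraries richest in immune markers left out.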

Additional observations from a re-analysis of the deposited data

Results flagged for a closer look

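Within the restored and the non-restored groups, a library was singled out where its gap to the nearest other library exceeded Dixon's critical value at the 95% level. Over 132 groups of values examined, 17 were singled out, where chance gives about 1 in 20. Of these, 10 were low values of non-restored replicate 8. Its median Spearman correlation with the other libraries was 0.814 (0.885 to 0.943 in the other non-restored libraries), and its levels were 158 CPM of *Selenop* (others 285 to 466), 6.27 CPM of *Apoc1* (17.3 to 43.7), 1.39 CPM of *Ckb* (7.89 to 17.1), 34.8 CPM of *Hadh* (59.3 to 88.7), 17.4 CPM of *Pmvk* (70.6 to 272), 145 CPM of *Cat* (291 to 513), 113 CPM of *Cd74* (510 to 1534), 1021 CPM of *Cxcl15* (3773 to 8940) and 162 CPM of *Mgst1* (269 to 473). Non-restored replicate 4 was low in *Wfdc1* at 3.58 CPM (15 to 48.6), and non-restored replicate 2 in *Sfn* at 5.15 CPM (12.3 to 29.2).

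In the restored group, replicate 3 was high in *Acss1* at 74.9 CPM (42.9 to 54.2) and low in *Fkbp11* at 6.12 CPM (12.2 to 18.1). Replicate 6, which had immune markers at 160 CPM, was high in *Apoc1* at 198 CPM (63.6 to 87.2), and the part of those markers in this value was not tested. Replicate 2 was low in *Egr1* at 1443 CPM (2169 to 2652), and replicate 5 was high in *Atp5b* at 617 CPM (384 to 460). The interaction test called no gene as different between the *Trp53* backgrounds, which does not show that none differs.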

How the results depend on the processing

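The 236 genes called were 468 with DESeq2, 432 with the replicate block, 101 against the tamoxifen arm alone, 97 against the vehicle arm alone and 89 without the 3 libraries with most immune markers, an alternative chosen after seeing the data. With 1 library left out the count ranged from 145 (without restored replicate 7) to 319 (without non-restored replicate 8), with 154 and 157 without restored replicates 2 and 1. The other alternatives stayed within 1.5 times. Against the tamoxifen arm, DESeq2 called 278 genes and edgeR without a filter 57, and with 1 library left out 50 (restored replicate 6) to 112 (non-restored replicate 4), with 57, 59, 63, 65, 65 and 67 without restored 7, non-restored 7, restored 1, restored 3, restored 5 and non-restored 9. Against the vehicle arm, DESeq2 called 299, and leaving out 1 library gave 57 (non-restored replicate 3) to 270 (non-restored replicate 8), with 60 without restored replicate 2. In *Trp53*-deficient tumors DESeq2 called 23 and edgeR without a filter 3, and leaving out an animal gave 0 to 1, as for the interaction (0 to 1). The 39 called list members were 63 with DESeq2, 80 with the replicate block, 16 and 22 against the tamoxifen and vehicle arms, 22 without the libraries with most immune markers, and 29 to 52 with 1 library left out. The log2 fold change of *Stk11* was 5.16 to 5.61 with 1 library left out and 5.20 with the replicate block, and it was called throughout. Of 1853 values of named genes under the alternatives, 1667 kept direction and side of the threshold, 153 lost the call, 6 gained it and 27 reversed, all of genes that were not called. *Bnip3l* (-0.01) became 0.01 in the fit of 2 groups, 0.08 with length offsets, 0.03 with the replicate block, 0.11 against the tamoxifen arm and -0.08 to 0.06 with 1 library left out. *Atf3* (0.26) became -0.08 with sex as a covariate. *Ccng1* (-0.01) became 0.18 in female libraries, 0.00 in the fit of 2 groups, 0.10 with the replicate block, 0.07 with sex as a covariate, 0.25 against the vehicle arm, 0.18 without the libraries with most immune markers and -0.10 to 0.09 with 1 library left out. The causes were not tested. Replicate numbers were not shown to pair the libraries. Same-numbered deviations correlated at 0.044 to 0.501, 5 of 7 pairs lay over 0.1 and 0 of 7 restored libraries matched their own number best. A batch shared by same-numbered libraries was not tested. Depth limits low genes, as 3 counts are 0.514 to 1.97 CPM.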

Other observations

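The genes of this paragraph were chosen after their values were seen and are given as description. Enzymes of mitochondria and of haem and metal handling stood among the genes that rose. *Alas1*, the rate-limiting enzyme of haem synthesis, ranged from 76.5 to 127 CPM in restored and 50.5 to 66.4 CPM in non-restored libraries, without overlap (log2 fold change 0.73, SE 0.11, adjusted p = 5.04e-04 in edgeR). The copper importer gene *Slc31a1* ranged from 133 to 244 CPM against 64.5 to 133 CPM (0.88, SE 0.16, adjusted p = 0.00424), and the peroxiredoxin gene *Prdx6* from 211 to 345 CPM against 154 to 227 CPM (0.67, SE 0.10, adjusted p = 7.60e-04). *Pccb* of propionyl-CoA carboxylase rose 1.52-fold (adjusted p = 0.00833), and *Acat1* and *Aldh6a1*, also of branched-chain amino acid breakdown, rose 1.46-fold and 1.47-fold (adjusted p = 0.0247 and 0.0216). *Rbp4*, the secreted carrier of retinol, ranged from 18.7 to 29.5 CPM against 0.464 to 15.1 CPM, without overlap (1.61, SE 0.31, adjusted p = 0.00691). *Tgfbr2*, a receptor for TGF-beta, ranged from 162 to 217 CPM against 250 to 387 CPM, also without overlap (-0.69, SE 0.13, adjusted p = 0.00476). The RNA-binding protein gene *Rbm24* ranged from 0.901 to 8.41 CPM against 0.696 to 76.9 CPM (-3.41, SE 0.63, adjusted p = 0.006).

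Among the changed genes, the largest fitted fall, and the largest fitted rise after *Stk11*, belonged to genes that varied greatly within a group. *Gkn2*, a gastrokine, ranged from 1.89 to 38.5 CPM (median 6.43) in restored and from 1.97 to 3772 CPM (median 71.6) in non-restored libraries (log2 fold change -5.71, SE 1.45, adjusted p = 0.0473, not called in 18 of 29 alternatives). *Pigr*, the receptor that carries IgA across epithelia, ranged from 2.57 to 380 CPM (median 5.39) against 0.796 to 7.2 CPM with a median of 2.9 (log2 fold change 4.92, SE 1.01, adjusted p = 0.0131, up to 0.447 over the alternatives).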
